A study of Mus musculus with 12 samples.

Results

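The genes described here encode the machinery that brings proteins into mitochondria and then folds or degrades them. They were defined by name: the 24 symbols that start with Timm or Tomm, plus 12 named chaperone and protease genes. This gives 36 of the 18929 gene symbols in the table. These genes were chosen with earlier results of these data known. Their transcripts were compared between T helper 1 (Th1) cells of wild-type control genotype and Th1 cells labelled Sdhc cKO, usually read as a conditional knockout (Sdhc encodes a subunit of respiratory complex II), with 3 RNA-seq libraries in each group. All were T cells of C57BL/6 mice kept in Th1 culture for 5 days, and RNA came from sorted cells. The sources used here give no Cre line, sex or age and do not say whether each library had its own animal. Each p-value therefore rests on the spread among the 3 libraries of a group, not on a known spread among animals. In the main test that spread was moderated by the spread of all tested genes. The series has 12 samples, and its 6 samples of Slc25a1 KO, Slc25a11 KO and EV transduced cells were not analysed here.

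Most mitochondrial proteins are made in the cytosol and imported. Precursors meet receptors of the TOM complex in the outer membrane, pass its channel, and are handed either to small TIM chaperones and the TIM22 complex (carrier proteins) or to the TIM23 complex and its ATP-driven motor (proteins with a cleavable presequence). In the matrix, chaperonins fold them, and ATP-dependent proteases remove those that are damaged or unassembled. Activated T cells enlarge their mitochondria as they grow, and several genes of this machinery respond to growth and stress regulators in other cell types.

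The sequence before the start of 4 members is shown, since Tomm40 and Timm50 had the largest fold changes, Tomm70a separated the groups, and Lonp1 and the first 2 were among the members that passed with a covariate (below). These stretches come from RefSeq promoters (GRCm38.p6, the assembly of mm10), cut where the first GENCODE exon begins. The Lonp1 stretch was not cut and runs up to its RefSeq start. Capitals mark CCAAT, or ATTGG where it lies on the other strand, and CACGTG, the E-box.
Tomm40, chr7:19715439-19715679, minus strand: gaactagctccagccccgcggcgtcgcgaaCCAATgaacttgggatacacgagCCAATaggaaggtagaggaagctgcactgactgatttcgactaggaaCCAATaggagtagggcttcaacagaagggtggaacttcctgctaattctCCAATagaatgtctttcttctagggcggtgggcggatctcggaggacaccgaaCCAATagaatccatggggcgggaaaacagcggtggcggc
Timm50, chr7:28312073-28312296, minus strand: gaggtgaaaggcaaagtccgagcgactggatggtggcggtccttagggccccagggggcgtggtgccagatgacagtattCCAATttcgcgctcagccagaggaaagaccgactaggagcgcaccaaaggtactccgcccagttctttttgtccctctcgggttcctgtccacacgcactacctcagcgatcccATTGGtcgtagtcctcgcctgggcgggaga
Tomm70a, chr16:57121464-57121702, plus strand: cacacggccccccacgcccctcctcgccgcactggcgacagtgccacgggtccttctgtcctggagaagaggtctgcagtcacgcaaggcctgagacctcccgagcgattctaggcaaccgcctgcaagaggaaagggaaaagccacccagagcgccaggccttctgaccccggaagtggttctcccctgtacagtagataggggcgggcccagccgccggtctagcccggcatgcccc
Lonp1, chr17:56626904-56627153, minus strand: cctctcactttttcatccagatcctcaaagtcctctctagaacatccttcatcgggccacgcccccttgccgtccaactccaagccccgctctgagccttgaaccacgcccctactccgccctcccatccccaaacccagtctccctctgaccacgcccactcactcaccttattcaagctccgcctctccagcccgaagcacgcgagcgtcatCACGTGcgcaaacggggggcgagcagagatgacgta

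On GRCm38, the Tomm40 gene spans chr7 from 19701313 to 19715438, Timm50 chr7 from 28305516 to 28312072, Tomm70a chr16 from 57121703 to 57156705 and Lonp1 chr17 from 56614297 to 56626887. These ends are from GENCODE, whereas motif distances are counted from the RefSeq starts, which are position 19715429 for Tomm40, 28312046 for Timm50 and 56626903 for Lonp1. Tomm40 held 5 copies of CCAAT, at 220, 197, 150, 101 and 48 bases before its RefSeq start. Timm50 had CCAAT at 170 and, on the other strand, 56 bases before its RefSeq start, Lonp1 had 1 E-box 36 bases before its own, and the Tomm70a stretch held neither motif. RefSeq promoter windows, all of one length, were found for 30 members (33 windows). CCAAT was in 30.3% of the member windows and in 37.4% of all 32851 windows. The E-box CACGTG, bound by MYC among others, was in 7 of the 33 (21.2%; Hspd1, Lonp1, Timm10, Timm8a1, Timm9, Tomm20 and Tomm20l) and in 7.15% of all windows. The motif of NRF1 and TGATGNAA, a composite of C/EBP and ATF sites, were in 0 member windows, and in 0.971% and 3.97% of all. Both strands were searched, and the windows were not matched on base composition.

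Hspd1 and Hspe1, which encode the 2 parts of the matrix chaperonin, lie head to head on chromosome 1 (55077835 to 55088243 and 55088132 to 55091307), and their first exons overlap on opposite strands. A heat shock motif core, GAANNTTC, starts 84 bases before the RefSeq start of Hspe1. That stretch is also within an annotated exon of Hspd1. The core was in 3 of the 33 member windows, those of Hspe1, Hspd1 and Timm9 (9.09%), and in 7.86% of all. The Hspd1 window that held it shares 285 bases with the Hspe1 window, so the same site was counted in both. Only the site itself is shown, with the core in capitals.
Hspe1 site, chr1:55088053-55088082, plus strand: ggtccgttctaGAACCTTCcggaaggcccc

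Values here are normalised counts, that is, reads of a gene after division by a factor for the depth of its library. Libraries held 18144933 to 21983821 counted reads. Sdhc itself stood at 1683, 1602 and 1892 in controls 1, 2 and 3, and at 1452, 1562 and 1655 in cKO 1, 2 and 3 (log2 fold change -0.15, SE 0.09, limma adjusted p = 0.978), and gene counts do not show whether part of the gene was deleted. All 5 T cell markers examined and all 5 Th1 markers were present. The T cell markers summed to 36929 to 40811 normalised counts in the controls and 38245 to 46592 in cKO, and the Th1 markers to 10612 to 11073 and 9470 to 10947. Sums were 46.3 to 64.7 and 39.8 to 76.3 for 4 B cell markers, 102 to 138 and 91.3 to 186 for 4 myeloid markers, 150.0 to 359 and 103 to 269 for 4 NK cell markers, and 278 to 368 and 235 to 547 for 2 CD8 T cell markers. Of 5 myeloid markers listed, 4 were among the genes with values. Every gene with values had reads in some library, so a marker at 0 throughout could not appear. The part of other cells in the results was not tested. Control 1 and cKO 1 stood apart from the other 4 libraries on the first principal component (49.07% of the variance) and had almost no Y-linked transcripts, at 0.048 and 0.207 RPM (counted reads scaled to library size) against 55.1 to 193 in the others. In bulk RNA, fewer cells of a type and less RNA per cell cannot be told apart.

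Of the 36 members, 34 had a normalised count over 10 in at least 3 libraries and were tested. The other two, Timm8a2 and Tomm20l, reached at most 4.02 and 2.71 in any library. No member changed past the test: 0 of 34 passed an adjusted p of 0.05 in limma on log2(normalised count + 1), where 0 of 12699 genes (0.0%) passed over the whole table. At an unadjusted p under 0.05 the count was 1 of 34, Hspe1, against 3.5% of all genes. edgeR on the recovered reads also called 0 members (0.0% of all genes), with 1 under an unadjusted 0.05 (3.58% of all), and DESeq2 called 0 (0.0157% of all genes), with 0 under an unadjusted 0.05 (2.3% of all). The fold changes, cKO minus control, ran from -0.34 for Tomm40 to 0.10 for Htra2. Of the 34, 25 were negative (73.5%, against 54.1% of all tested genes), and the median was -0.07, against -0.01 for all tested genes. Without cKO 1 the median was -0.02.

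**Figure D1:**
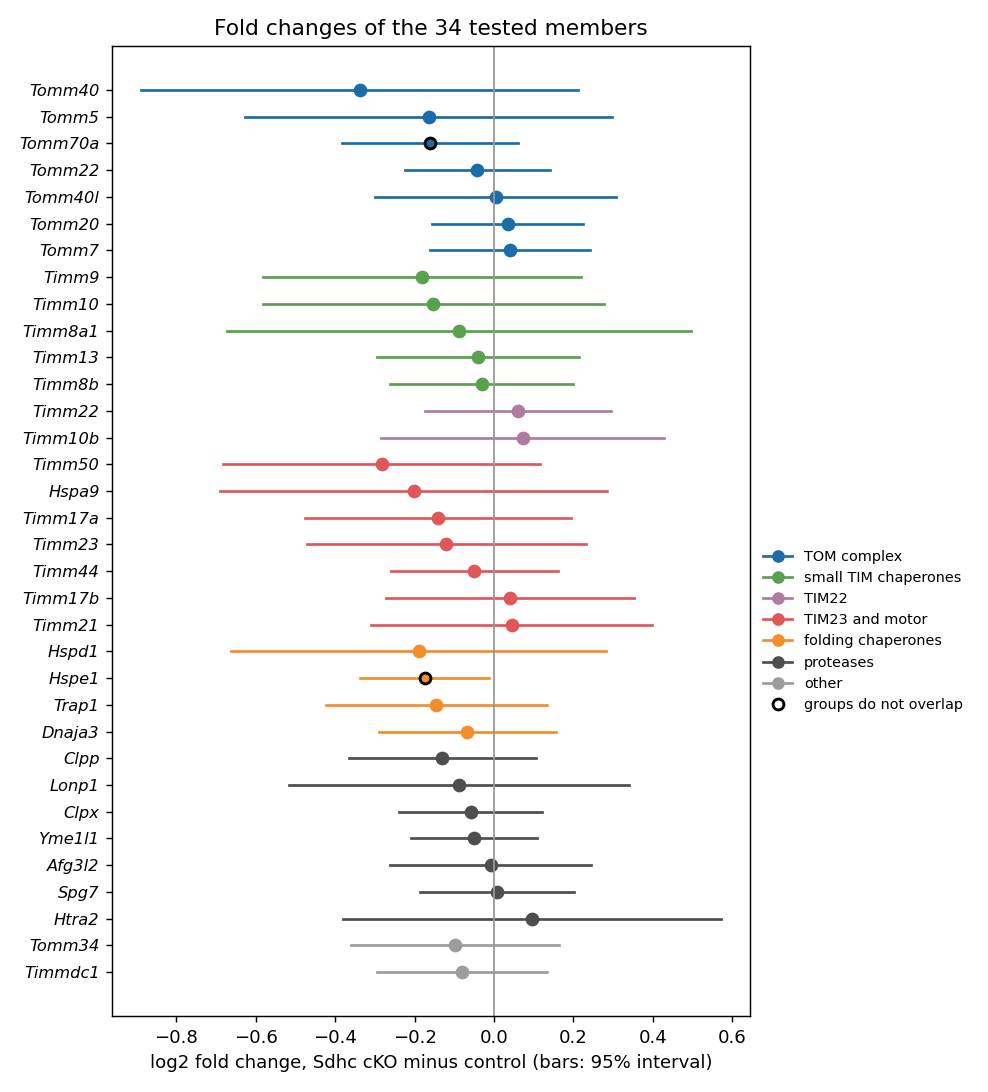
Log2 fold change (Sdhc cKO minus control, on the log2(normalised count + 1) scale) of each tested member, grouped by role, with its 95% interval; black rims mark members whose groups do not overlap. The interval of Hspe1, from -0.34 to -0.01, is the only one of the 34 that excludes 0 before adjustment.

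Per exon length, Hspd1, Hspe1 and Hspa9 were the most abundant members. In the controls Hspd1 had 2109 normalised counts per kb of exons, Hspe1 1814 and Hspa9 1791, followed by Tomm7 (1477) and Tomm22 (1092), with the other folding chaperones Trap1 (619) and Dnaja3 (320.4) below them. The SD of Hspd1 (414) was wider than its gap to Hspe1, and that of Hspa9 (250) wider than its own gap to Hspe1. The place of Hspe1 among these 3 is therefore not resolved. These SDs are between libraries, and the order within each library was not compared. At the other end of the tested members were Timm10b (22.2), Tomm40l (27.0) and Timm8a1 (50.1). The channel gene Tomm40, at 137, was higher per kb than its paralogue Tomm40l, while its partner subunits Tomm7 and Tomm22 lay far above it. Timm17b (361) was higher per kb than Timm17a (78.6). Exon length here is the union over all annotated transcripts, which understates genes with long rare isoforms.

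**Figure D2:**
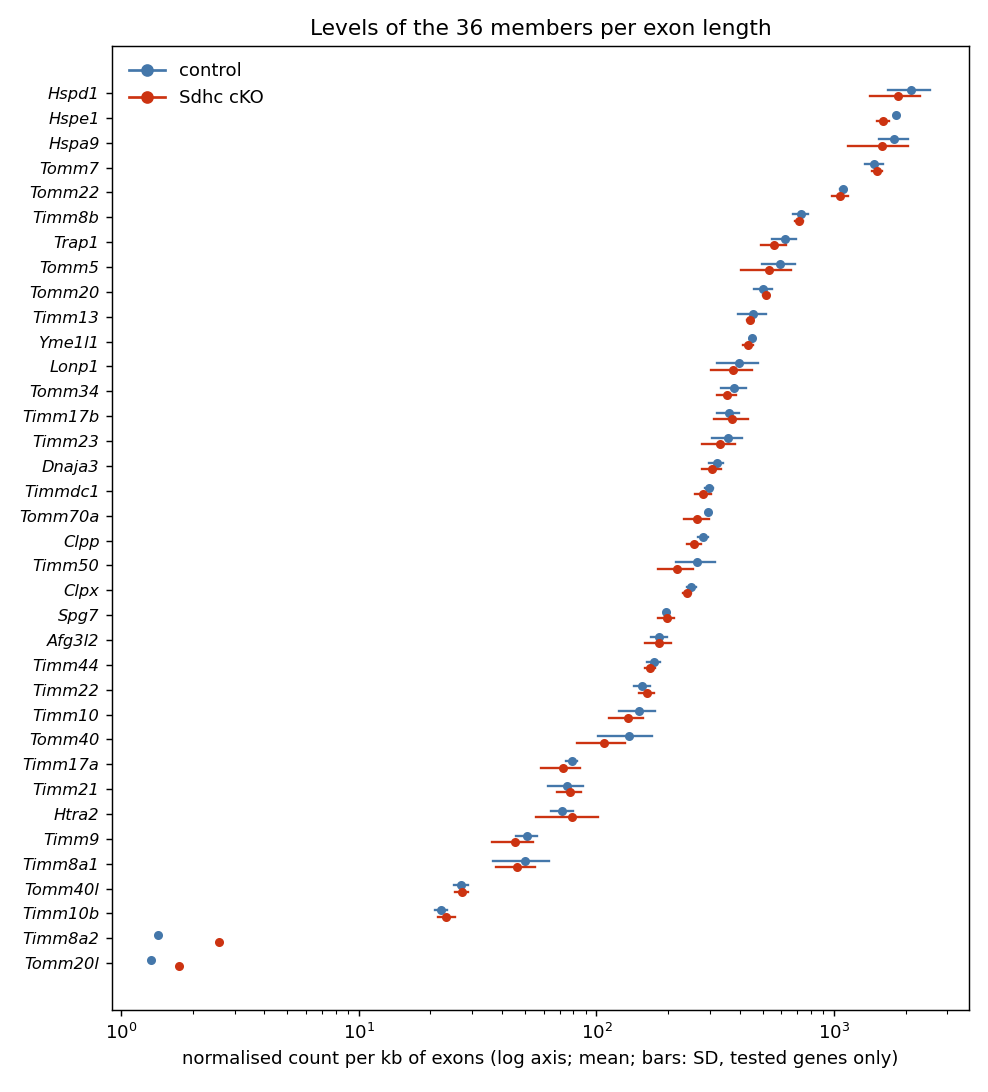
Mean normalised count per kb of exons for all 36 members in control and Sdhc cKO libraries, on a log axis, with SD bars (n = 3) for the 34 tested genes. Control levels span from about 1 for Tomm20l and Timm8a2 to 2109 for Hspd1. Control and cKO points lie close together for each tested gene, and less so for Timm8a2 (1.43 and 2.58), which was too low to test.

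In the TOM complex, the entry gate, 7 of the 8 members in the table were tested, 0 passed, 4 fold changes were negative and the median was -0.04. Tomm70a, a receptor for carrier precursors, had normalised counts of 2854, 2873 and 2925 in controls 1, 2 and 3 and 2248, 2842 and 2685 in cKO 1, 2 and 3. All cKO values were below all controls, by a wide margin only in cKO 1. The means were 2884 ± 36.8 and 2591 ± 308 (SD, n = 3 each; log2 fold change -0.16, SE 0.10, limma adjusted p = 0.978), and without cKO 1 the fold change was -0.06. Across the 34 tested members, 2 had groups that did not overlap with cKO lower, Tomm70a and Hspe1 (5.88%), near the 5.64% of all tested genes, and 0 had cKO higher (4.51% of all).

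For Tomm40, the channel of the complex, control libraries read 438, 748 and 663 normalised counts and cKO libraries 359, 575 and 521. Each cKO library was below the control of the same number, yet control 1 lay below cKO 2 and cKO 3, so the groups overlapped. Means were 616 ± 160 and 485 ± 113 (SD, n = 3 each; log2 fold change -0.34, SE 0.24, limma adjusted p = 0.978), the largest difference among the members, with an exact permutation p of 0.4 (2-sided; 0.1 is the smallest that 3 against 3 allows). With 1 library left out at a time it ranged from -0.57 (without control 1) to -0.14 (without cKO 1). Tomm40l, its low paralogue, had 137, 130 and 148 in control and 141, 129 and 147 in cKO, a log2 fold change of 0.00. Tomm20, the presequence receptor, had 2365, 2324 and 2720 in control and 2516, 2460 and 2598 in cKO. Its groups overlapped fully, and its log2 fold change of 0.04 had a 95% interval of -0.15 to 0.23. The small subunit genes went both ways: log2 fold changes were -0.16 for Tomm5 (SE 0.20) and 0.04 for Tomm7 (SE 0.09), and the central receptor gene Tomm22 had -0.04 (SE 0.08).

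Among the small TIM chaperones, which shield hydrophobic precursors between the membranes, all 5 tested fold changes were negative, from -0.18 for Timm9 to -0.03 for Timm8b, with a median of -0.09 and 0 called. Timm13, the most abundant by count, had 562, 596 and 720 normalised counts in control and 587, 623 and 608 in cKO. Timm10, which forms a ring with Timm9, had 110, 147 and 111 in control and 97.4, 131 and 102 in cKO. The low X-linked gene Timm8a1, named for the human deafness-dystonia gene, had 50.9, 74.5 and 88.0 in control and 52.2, 75.9 and 70.0 in cKO. For each of these 3 genes the groups overlapped. Of TIM22, the carrier insertase, both members in the table had positive fold changes: Timm22 had 470, 539 and 478 in control and 479, 518 and 554 in cKO (0.06, SE 0.10), and Timm10b had 0.07 (SE 0.15). Another subunit gene, Timm29, is listed under its older symbol 1810026J23Rik and so lies outside the rule; its log2 fold change was 0.04 (SE 0.08).

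The TIM23 complex and its motor had 7 tested members, 5 of them with negative fold changes, a median of -0.12 and 0 called. Timm50, the receptor that takes presequences from TOM, had 563, 800 and 779 normalised counts in control and 477, 662 and 617 in cKO. As with Tomm40, each cKO value was below its same-numbered control while control 1 lay below cKO 2 and cKO 3. Its means of 714 ± 131 and 585 ± 96.2 (SD, n = 3 each) differed by -0.28 on the log2 scale (SE 0.17, limma adjusted p = 0.978). With 1 library left out this ranged from -0.44 (without control 1) to -0.14 (without cKO 1). Hspa9, the mitochondrial HSP70 that drives the motor, had 6536, 8648 and 7975 in control and 4760, 8542 and 7275 in cKO (log2 fold change -0.20, SE 0.21, adjusted p = 0.978). The value in cKO 1 was the lowest of the 6 by far, and without it the fold change turned to 0.04, while without cKO 2 it was -0.38.

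Timm23, a channel subunit gene, had 547, 638 and 735 normalised counts in control and 488, 668 and 613 in cKO, a log2 fold change of -0.12 (SE 0.15). Timm44, which tethers HSP70 to the channel, had -0.05 (SE 0.09) and Timm21, a linker to TOM, 0.04 (SE 0.15). The alternative channel subunits Timm17a and Timm17b, the latter X-linked, did not follow each other across libraries. Timm17a had 585, 656 and 620 in control and 449, 648 and 610 in cKO, whereas Timm17b had 1009, 815 and 944 in control and 1123, 819 and 919 in cKO. In cKO 1 the first was at its lowest and the second at its highest. Their ratio, examined after the values were seen along with 2 other ratios, was 0.58, 0.804 and 0.657 in controls 1, 2 and 3 and 0.4, 0.791 and 0.664 in cKO, and did not separate the groups (exact permutation p = 0.7, 2-sided).

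**Figure D3:**
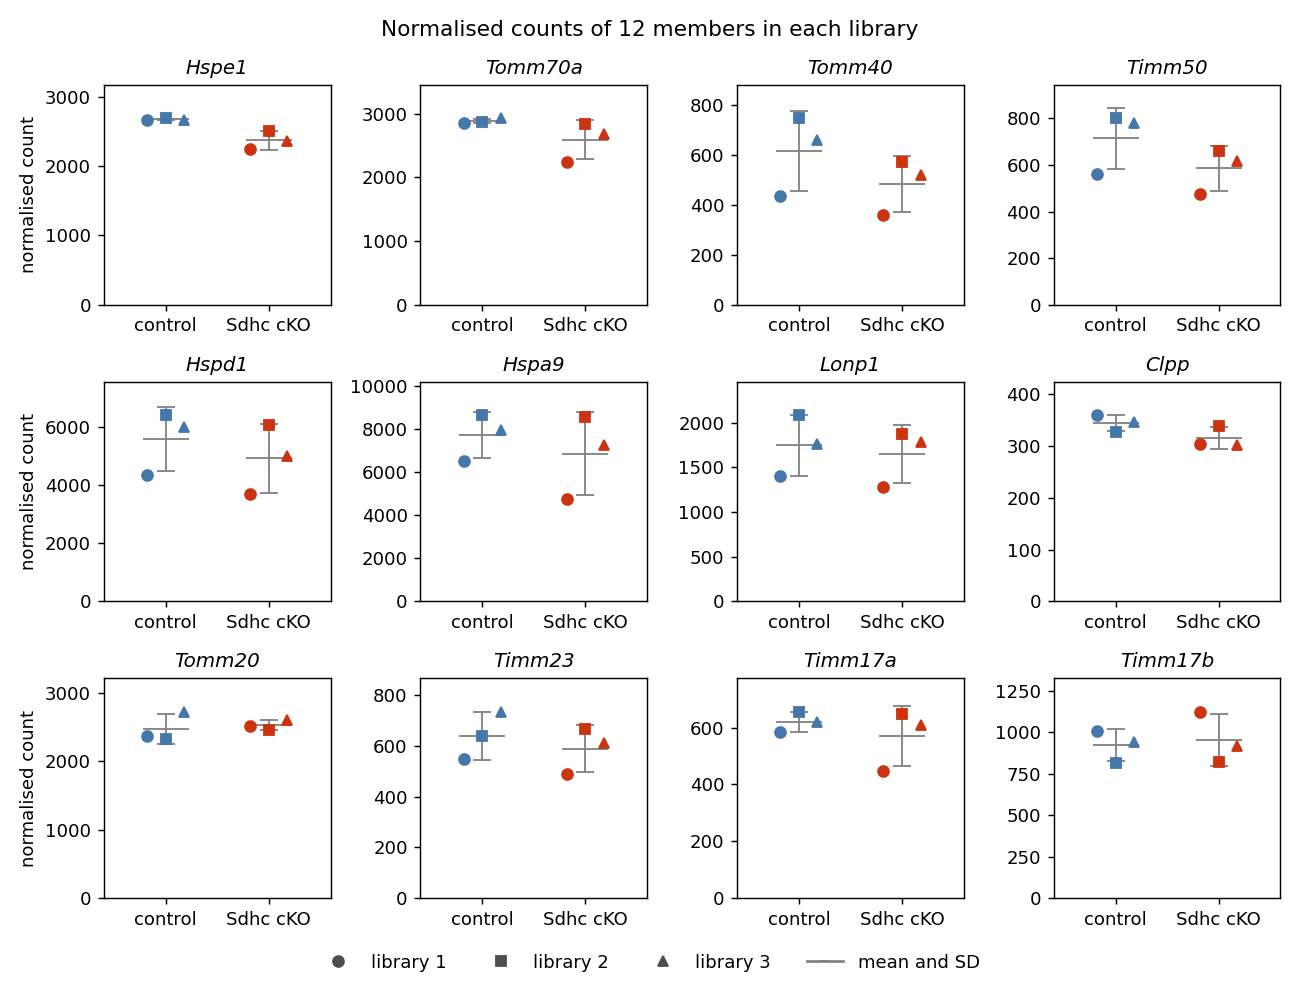
Normalised counts of 12 members in each library (circle, square and triangle for libraries 1, 2 and 3), with the group mean and SD (n = 3). Hspe1 and Tomm70a are the 2 genes whose groups do not overlap; Tomm40, Timm50, Hspd1, Hspa9 and Lonp1 are lowest in library 1 of both groups.

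The folding chaperones had the lowest median of the roles, -0.16, with 4 of 4 negative fold changes and 0 called. Hspe1, the lid of the chaperonin, had 2668, 2685 and 2667 normalised counts in control and 2241, 2507 and 2364 in cKO. The 3 controls were almost identical and all cKO libraries lay below them. Controls averaged 2673 ± 9.67 and cKO libraries 2371 ± 133 (SD, n = 3 each), so cKO stood at 88.7% of control. The difference of -0.17 on the log2 scale (SE 0.07) did not pass over all genes (limma adjusted p = 0.978; exact permutation p = 0.1, 2-sided, the smallest possible). The fold change was -0.13 without cKO 1 and -0.14 without both libraries numbered 1. Reads of Hspe1 and Hspd1 are uncertain to the extent that they were split with their annotated pseudogenes or with each other where the first exons overlap.

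Hspd1, the barrel of the same chaperonin, had 4328, 6390 and 5997 normalised counts in control and 3699, 6061 and 4989 in cKO. Its controls spread far more than those of Hspe1, and the groups overlapped (log2 fold change -0.19, SE 0.20, adjusted p = 0.978). That difference was 0.00 without cKO 1 and -0.36 without control 1. The ratio of Hspd1 to Hspe1 counts was 1.62, 2.38 and 2.25 in controls 1, 2 and 3 and 1.65, 2.42 and 2.11 in cKO 1, 2 and 3. It was low in both libraries numbered 1 and did not separate the genotypes (log2 difference -0.01, exact permutation p = 1.0, 2-sided). The log2 fold change of Trap1, a mitochondrial HSP90, was -0.15 (SE 0.12), and that of Dnaja3, a J-protein partner of HSP70, was -0.07 (SE 0.10).

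Among 7 proteases 0 were called. Fold changes were negative for 5 of them, around a median of -0.05. Yme1l1, the i-AAA protease of the inner membrane, had 3650, 3526 and 3628 normalised counts in control and 3409, 3671 and 3357 in cKO. Lonp1, the main ATP-dependent matrix protease, had 1398, 2083 and 1757 in control and 1275, 1874 and 1787 in cKO. Clpp, the peptidase of the ClpXP protease, had 359, 327 and 346 in control and 303, 339 and 302 in cKO. In all 3 genes the groups overlapped, and the log2 fold changes were -0.05 (SE 0.07), -0.09 (SE 0.18) and -0.13 (SE 0.10). Clpx, the unfoldase partner of Clpp, had -0.06 (SE 0.08). The m-AAA subunit genes Afg3l2 and Spg7 had -0.01 (SE 0.11) and 0.01 (SE 0.08). Htra2, a serine protease of the intermembrane space, had 234, 188 and 213 in control and 310, 185 and 200 in cKO, so its positive fold change of 0.10 (SE 0.21) came with a single high library. Of the remaining pair, Tomm34, a cytosolic co-chaperone, had 1316, 1103 and 1046 in control and 1194, 999 and 1039 in cKO (-0.10, SE 0.11), and Timmdc1, a complex I assembly factor, had -0.08 (SE 0.09).

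The log2 range over the 3 controls exceeded the fold change in 31 of 34 members (91.2%), near the 84.7% of all tested genes. The libraries numbered 1 were low for many members: 19 of 34 members were lowest in library 1 of both groups (55.9%, against 26.8% of all tested genes), and 4 were highest there in both (11.8%, against 25.3%). Control 1 lay below the mean of controls 2 and 3 by a median of -0.13 on the log2 scale over the members (0.00 over all tested genes), and cKO 1 below cKO 2 and 3 by a median of -0.14 (-0.01). The members furthest down in both were Tomm40 (-0.68 in control and -0.61 in cKO), Timm8a1 (-0.66 and -0.47), Hspd1 (-0.52 and -0.57), Timm50 (-0.49 and -0.42), Lonp1 (-0.45 and -0.52), Tomm5 (-0.42 and -0.61) and Hspa9 (-0.35 and -0.73), while Htra2 (0.22 and 0.69), Timm17b (0.20 and 0.37) and Tomm34 (0.29 and 0.23) were up in both. These genes were picked after their values were seen.

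**Figure D4:**
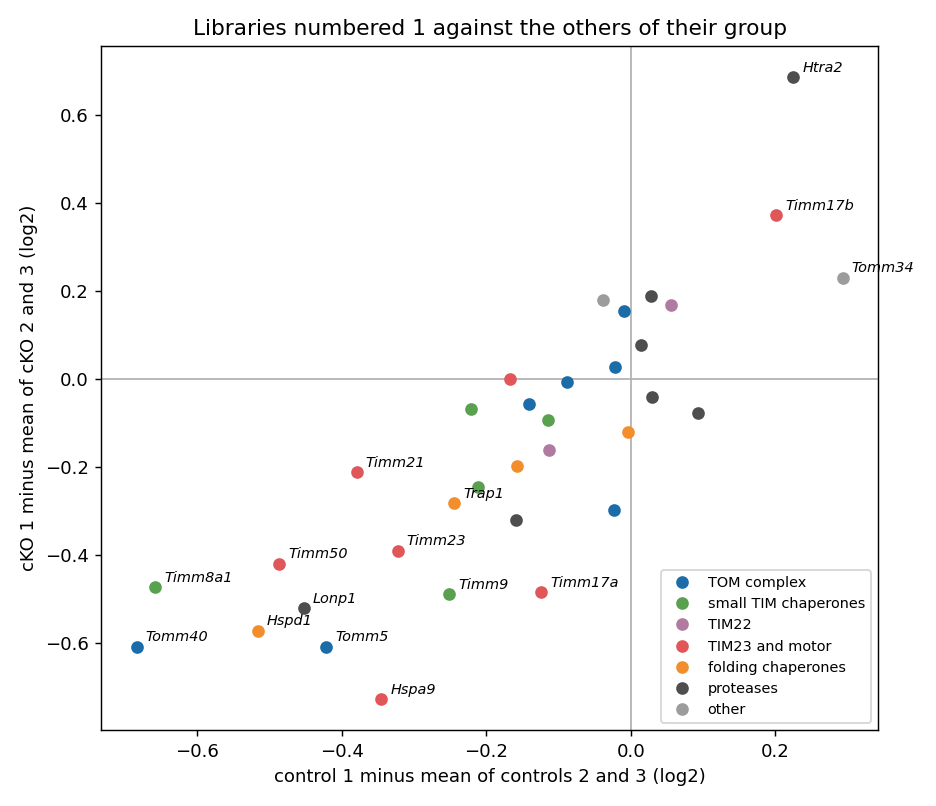
Log2 difference of library 1 from the mean of libraries 2 and 3 in control (horizontal axis) and in Sdhc cKO (vertical axis) for each tested member, coloured by role. Most points lie at lower left, with Tomm40 at -0.68 and -0.61, and Htra2 stands at upper right.

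Within same-numbered pairs the cKO library was lower for 20 of 34 members in pair 1 (median log2 ratio -0.10), 20 in pair 2 (-0.02) and 30 in pair 3 (-0.12), where the medians over all tested genes were -0.03, -0.01 and -0.01. Lower in all 3 pairs were 13 members (38.2%, against 21.8% of all tested genes), among them all 4 folding chaperones, and higher in all 3 was 1, Timm10b (2.94%, against 14.6%). With the replicate number as a block, 0 members passed (0.00787% of all genes), and 6 had an unadjusted p under 0.05 (17.6%, against 12.6%). Leaving out both libraries numbered 1 gave 29 negative fold changes and again 0 called (0.0236% of all genes), with 2 members under an unadjusted p of 0.05 (7.32% of all), Tomm40 at -0.36 and Timm50 at -0.30 (limma adjusted p = 0.654 for each).

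**Figure D5:**
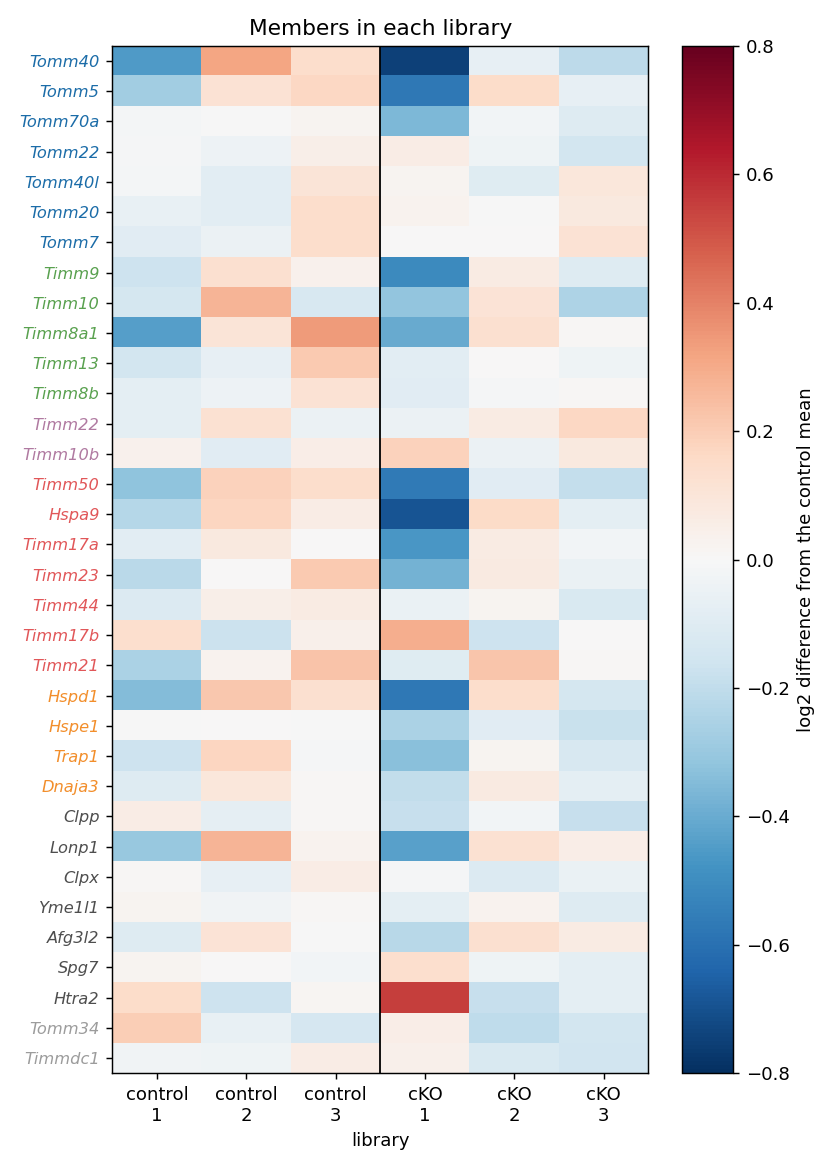
Log2 difference of each library from the control mean for the 34 tested members, ordered by role as in the plot of fold changes. Blue fields (lower) gather in control 1 and more deeply in cKO 1, while cKO 2 is close to the control mean, with a median of 0.000210 over the members.

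Calls appeared only when the share of Y-linked reads entered the fit as a numeric covariate. Then 5 of 34 members passed, all lower in cKO (14.7%, against 4.86% of all tested genes called lower; 6.5% were called in either direction). The 5 were Tomm40 (log2 fold change -0.59, limma adjusted p = 0.0217), Timm50 (-0.45, 0.0316), Hspa9 (-0.44, 0.0168), Hspd1 (-0.41, 0.0385) and Lonp1 (-0.29, 0.0438). At an unadjusted p under 0.05 the count was 14 members (25.8% of all genes). All 5 called genes were lowest in library 1 of both groups, the libraries where the covariate is near 0. Without both libraries numbered 1, and without the covariate, their fold changes were -0.36, -0.30, -0.08, -0.17 and -0.06, and 0 passed. The part of the Y-linked share in these values was not tested otherwise. Outside the libraries numbered 1 the covariate also differed by genotype. Control 2 stood at 131 RPM and control 3 at 55.1, while cKO 2 reached 193 and cKO 3 reached 189. The fit therefore had to separate genotype from a covariate that partly varied with it. How far the 5 calls depend on that overlap was not tested.

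A further list held 40 genes, of import and processing, quality control, and stress regulation with cytosolic chaperones, and 39 of them were tested. None passed the test (limma adjusted p of at least 0.978), 34 fold changes were negative and the median was -0.08. Groups did not overlap in 6, with cKO lower in 5 of the 39 (5.64% of all tested genes) and higher in 1 (4.51% of all). Mtx2 (an outer membrane import and sorting factor; 504, 537 and 484 in control, 424, 415 and 446 in cKO), Dnajc19 (a motor subunit; 384, 399 and 447 against 320, 377 and 379), Pmpca (the processing peptidase subunit; 1433, 1504 and 1492 against 1407, 1373 and 1346), Afg3l1 (an m-AAA subunit; 1286, 1396 and 1305 against 1156, 1239 and 1245) and Hsf1 (the heat shock factor; 487, 475 and 489 against 443, 467 and 454) were lower in cKO. Ddit3, which encodes the stress factor CHOP, was higher, with 583, 490 and 560 in control and 636, 681 and 686 in cKO (log2 fold change 0.30, SE 0.10). Other regulators of mitochondrial stress responses overlapped between the groups: Atf4 had 2775, 4320 and 4286 in control and 2467, 3905 and 3403 in cKO (-0.22, SE 0.22), and Atf5 had 441, 634 and 739 against 317, 794 and 777 (-0.03, SE 0.36). Both were among the 22 of the 39 that were lowest in library 1 of both groups (26.8% of all tested genes). With the Y-linked covariate 5 of the 39 passed, all lower (4.86% of all called lower): Chchd4, Dnajc15, Phb, Atf4 and Hsp90aa1.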

How the data were processed

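RNA of sorted Th1 cells was made into Illumina TruSeq libraries, per the labels' protocols. Per the submitters' processing notes the tools were STAR, HTSeq and DESeq2 on mm10. Versions, annotation and strand setting: not given in the sources used here. The deposited signal values are gene counts divided by a size factor per library: dividing each library by what 1 read is worth gave whole numbers (tolerance 0.01) for 100% of values, and these recovered reads give the depth (18144933 to 21983821 per library). The members, gene lists and settings were chosen with earlier results of these data known.

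The main test was limma-trend in R 4.3.3 (limma 3.58.1) with a genotype term, run on log2(value + 1) of the 12699 genes that exceeded 10 in 3 or more libraries. P-values were adjusted by Benjamini-Hochberg over those genes, with a threshold of 0.05. SE is the moderated standard error. The plan, limma for values divided by size factors, was kept. Adding 1 understates the fold changes of low genes. Alternatives were pseudocounts of 0.1 and 5, no filter or a filter at 50, TMM or library-total scaling, array weights, edgeR 4.0.16 and DESeq2 1.42.0 on recovered reads, the replicate number as a block, the Y-linked share (Ddx3y, Kdm5d, Uty and Eif2s3y) as a covariate, and leaving out each library or both libraries numbered 1, with the tested genes kept. The fits were run on simulated data with changes larger than any member's, no replicate effect and a random covariate unrelated to genotype. Those data therefore do not show how the block and Y-linked covariate fits behave on these libraries. Across genes, a control and the cKO library of its number deviated together (r of 0.579, 0.458 and 0.188 for numbers 1, 2 and 3). Deviations were taken from the mean of each group, so these r values are not independent. That of number 2 depends partly on the libraries numbered 1. However, cKO 3 deviated more with control 2 (r of 0.272) than with control 3. This check therefore does not settle numbers 2 and 3. The pairing comes from the numbers in the titles.

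Values in every library are given for members whose groups did not overlap, the most abundant by count of each role, the 3 largest fold changes and 13 fixed members; other genes named were picked after their values were seen. Symbols of all 36 members were found in GENCODE M21 (GRCm38). Exons of 14 members overlap a gene on the opposite strand, so reads of such neighbours cannot be told apart if counting ignored strand, and 3 members (Hspd1, Hspe1 and Hspa9) have 12 annotated pseudogenes.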

Additional observations from a re-analysis of the deposited data

How the results depend on the processing

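The count of 0 members called was the same under each of the 18 alternatives except the Y-linked covariate, which called 5. With the replicate block it was 0, with a median log2 fold change over the members of -0.07, so the pairing changed no call. Leaving out 1 library at a time gave 0 members called, medians of -0.10 to -0.02 and 21 to 28 negative fold changes of 34; the median nearest 0 was that without cKO 1. All medians, that without cKO 1 included, lay within the spread between cKO libraries (SD 0.07) of the value reported. Of the 34 tested members, 15 kept the sign of their fold change under all 18 alternatives and 19 did not, none of the latter past the test after turning. Hspe1, Tomm70a, Tomm40, Timm50, Timm10, Clpp, Yme1l1 and Tomm34 were among the 15, though Tomm34 stood at only -3.71e-05 without control 1. Among the others, Hspa9, Hspd1, Timm17a, Timm23 and Timm8a1 turned positive without cKO 1 (0.04, 0.00, 0.02, 0.01 and 0.07), Timm17b turned negative there (-0.08), and Lonp1 turned there (0.09) and without control 2 (0.05). The Y-linked covariate made calls of Tomm40 (-0.59), Timm50 (-0.45), Hspa9 (-0.44), Hspd1 (-0.41) and Lonp1 (-0.29); the cause of the change was not tested. With 3 libraries a group, differences smaller than the 95% intervals plotted could not be resolved.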
